A study of Homo sapiens with 52 samples.

Results

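The transcripts found in eIF2D-bound small ribosomal subunits were set against those of translation complex profiling without selection, in HEK293T, a transformed cell line of human embryonic kidney origin. 2 libraries (eIF2D-V5 40S Sel-TCP-seq) came from 40S complexes pulled out by V5-tagged eIF2D, and they were set against 4 libraries of unselected TCP-seq from wild type HEK293T cells. Transcripts were kept where the mean count over these 6 libraries was 20 or more, which kept 19313 of the 226882 transcript identifiers in the deposited table and 13.6% of the 142005 with a count in any of the 6. No drug, dose or time is given in the labels for either group. The labels do not say how the tag was introduced, whether the cells kept untagged eIF2D, or which ribosome fraction the unselected libraries hold. Selection and the tag differ together between the groups, the ribosome fraction may differ too, and their parts cannot be told apart. Whether the replicates are separate cultures is not in the labels, so a p-value speaks only to the variation among these particular libraries, and that variation may be technical.

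A ribosome that reaches a stop codon releases its protein, its large subunit leaves, and the small (40S) subunit with a tRNA stays on the mRNA until it is recycled. eIF2D is a single protein that can remove such a tRNA and 40S subunit, and MCTS1 and DENR together form a complex built of like domains. TCP-seq sequences the mRNA fragments that ribosomal complexes protect, and selection with an antibody to a tagged factor keeps the complexes that carry the factor. RNA-seq and Ribo-seq (fragments under ribosomes held on mRNA by cycloheximide) of wild type cells, 2 libraries each, served to class the transcripts. 4 further selected libraries, 2 with MCTS1-V5 and 2 with DENR-V5, served to compare the selections. TCP-seq of 2 eIF2D knockout (KO) clones, 2 libraries each, and RNA-seq and Ribo-seq of 2 MCTS1 KO clones, of cells given either of 2 siRNAs against DENR (siDENR #1 and #2) and of control siRNA (siControl) cells, 2 libraries of each assay per group, were read beside the selection.

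The 2 eIF2D-bound libraries held 1017092 and 2582917 counts in all, and the 4 wild type libraries held 1900382 to 3084003. The tested transcripts took 73.32% to 77.98% of the counts of each of the 6 libraries. The 2 eIF2D-bound libraries differed from each other by 6.08 times counting noise (chi-square per degree of freedom over transcripts). Wild type libraries with adjoining library names, 1 with 2 and 3 with 4, differed by 1.67 and 1.71 times, and those of different pairs by 2.77 to 4.93 times. No source pairs these transcript identifiers with genes, so transcripts are given by identifier and no gene function, coordinate or sequence is attached to them. For the same reason neither EIF2D itself nor the markers of the cell line could be looked up.

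Representation differed widely between eIF2D-bound and unselected complexes. 4146 transcripts were higher in the eIF2D-bound libraries, which is 21.5% of those tested, and 4004 were lower, which is 20.7% (edgeR quasi-likelihood test, Benjamini-Hochberg adjusted p under 0.05). The median log2 change was 1.09 among the transcripts called higher and -1.12 among those called lower, beside -0.03 over all transcripts tested, whose lower and upper quartiles were -0.59 and 0.53. Of the calls, 2396 were at least 2-fold higher and 2544 at least 2-fold lower, and 403 and 345 passed 4-fold. 3750 of those called higher and 3909 of those called lower had CPM (counts scaled to the library total) that did not overlap between the groups. The calls were made on the same libraries, so this separation is no further support for them. No such count over all tested transcripts is given here. All values are relative to the other transcripts in a library, so a whole-cell gain or loss of complexes does not show.

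The calls rested in good part on eIF2D-bound replicate 2, the deeper library. Without it 2017 transcripts were higher and 1215 lower, and without eIF2D-bound replicate 1 the numbers were 4340 and 3704. 2838 transcripts were called higher and 2377 lower against each wild type pair taken alone. The filter, set on raw counts that are not scaled for depth, also bears on the numbers and on their balance. Of the tested transcripts 981 had a wild type mean count under 20 and passed through the eIF2D-bound libraries, and 878 of these were called higher. In the opposite sense 4877 had an eIF2D-bound mean under 20, and 2380 of these were called lower. Among the 13455 whose means were 20 or more in both groups, 3268 were higher and 1624 lower, so the near-equal numbers over all tested transcripts were not seen there. These means are raw counts too, and eIF2D-bound replicate 1 was the shallowest library compared, at 1017092 counts in all. Depth thus bears on which transcripts were left out, and its part in the excess of rises was not tested. At the edge of the filter, the 925 transcripts with a mean count of 20 to 21 had a median of 16.5 counts in eIF2D-bound and 22.5 in wild type libraries, and the 1113 with 19 to 20 had 15 and 21.5.

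**Figure D1:**
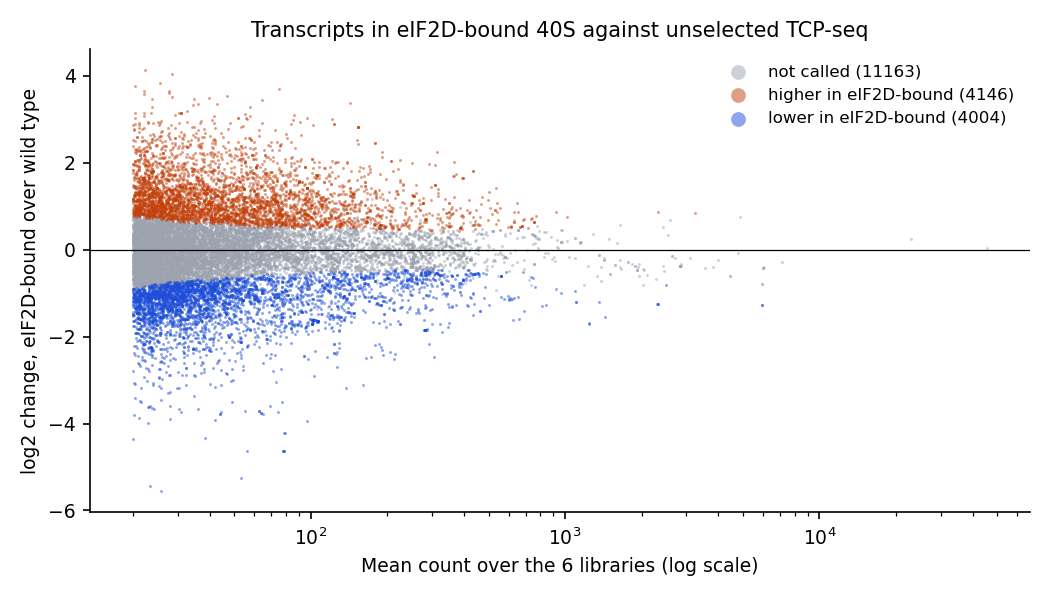
log2 change of each of the 19313 tested transcripts (eIF2D-bound over wild type, vertical axis) by its mean count over the 6 libraries (horizontal axis, log scale). Orange points are the 4146 transcripts called higher, blue points the 4004 called lower, and grey points those not called; the range is -5.56 to 4.13.

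Transcripts that overlap can be given the same reads, so calls per transcript are not independent. The 19313 transcripts fell into 10146 groups whose counts moved together over all 42 libraries with counts (correlation of replicate deviations above 0.95). The largest group held 44 transcripts and 6429 held 1. Counting only the most abundant transcript of each group, 2296 were higher (22.6%) and 2223 lower (21.9%) in the eIF2D-bound libraries, shares close to those over all transcripts.

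4 transcripts were followed library by library, the 2 largest rises and the 2 largest falls among leading transcripts with a mean count of at least 100, a called change, no overlap between the groups and the same sign against both wild type pairs. This rule left 306 candidates higher and 356 lower. Since the rule chose these transcripts for their change, their values here are a description.

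ENST00000645600.1 had 134.7 and 217.2 CPM in the eIF2D-bound libraries, against 13.29, 27.04, 15.49 and 15.26 CPM in wild type libraries 1 to 4. Both selected libraries lay far above all 4 wild type libraries, with a log2 change of 3.38 ± 0.24 (SE, edgeR adjusted p = 7.3e-09). In wild type cells it averaged 132 ± 4.01 CPM in RNA-seq and 253 ± 13.6 CPM in Ribo-seq (SD, n = 2 libraries each), so both assays counted it well. ENST00000584755.1 had 111.1 and 171.9 CPM in the eIF2D-bound libraries, against 16.86, 25.48, 22.01 and 14.73 CPM in wild type. The groups again lay apart, by 2.90 ± 0.21 on the log2 scale (SE, edgeR adjusted p = 7.3e-09). It was low in RNA-seq, at 9.62 ± 0.023 CPM, and high in Ribo-seq, at 272 ± 11.2 CPM (SD, n = 2 libraries each). It shared reads with the other transcripts of a group of 3.

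Both named falls were nearly absent from RNA-seq and Ribo-seq. ENST00000363804.1 had 13.76 and 6.97 CPM in the eIF2D-bound libraries, against 72.96, 92.05, 92.94 and 85.25 CPM in wild type. The change was -3.17 ± 0.30 (SE, edgeR adjusted p = 6.5e-08), and its mean level was 0.012 CPM in RNA-seq and 0.144 CPM in Ribo-seq. ENST00000363221.1 had 19.66 and 6.97 CPM in the eIF2D-bound libraries, against 81.39, 105.1, 105.2 and 112.6 CPM in wild type. Its change was -3.11 ± 0.35 (SE, edgeR adjusted p = 3.3e-06), and it had no RNA-seq count and 0.029 CPM in Ribo-seq. Each of these transcripts had 18 counts in eIF2D-bound replicate 2, so its level there is coarse.

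**Figure D2:**
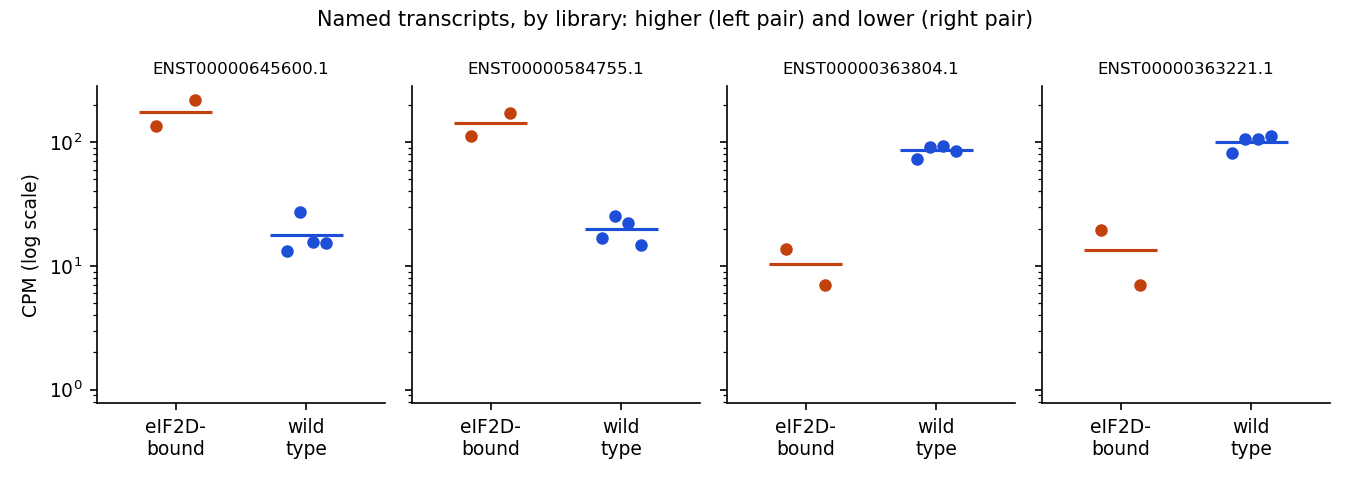
CPM (log scale) of the 4 named transcripts in the 2 eIF2D-bound libraries (orange, left in each panel) and the 4 wild type libraries (blue, right). Points are libraries and horizontal bars are group means; in every panel the eIF2D-bound points lie on one side of all wild type points.

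Over the 20 largest rises chosen by the same rule the log2 change ran over 1.87 to 3.38, and over the 20 largest falls it ran over -3.17 to -2.14. Of the 19 rises with a ribosome load (defined next), 13 were in the highest quartile of load and 0 in the lowest. Of the 20 falls, 6 had a ribosome load, with 4 in the lowest quartile and 1 in the highest. Another 9 of the falls were under 1 CPM in both RNA-seq and Ribo-seq, a class of 453 among the 19313 tested. Only 119 of that class had a mean count of at least 100, as the rule asks. The load quartiles were likewise cut over tested transcripts of all levels, so neither is a like background for these 20. The 10 most abundant leading transcripts of the eIF2D-bound libraries averaged 1366 to 22460 CPM there, with log2 changes of -1.28 to 0.86, 1 of them called higher and 1 lower.

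Representation in eIF2D-bound complexes followed how heavily ribosomes occupied a transcript. Ribosome load was taken as the ratio of CPM in wild type Ribo-seq to CPM in wild type RNA-seq, for the 18414 tested transcripts with at least 1 CPM in RNA-seq. These libraries are outside the comparison. In quartiles of rising load, whose median ratios were 0.378, 0.768, 1.12 and 1.64, the median log2 change of eIF2D-bound over wild type was -0.70, -0.10, 0.23 and 0.46. Called rises were 2.98% of the lowest quartile, 13.3% and 27.5% of the middle quartiles and 42.0% of the highest, beside 21.5% of all transcripts. Called falls were 47.4%, 17.2%, 9.17% and 6.60% in the same order, beside 20.7% of all. With the transcripts cut into 10 equal groups by load, the median log2 change was -1.03 in the bottom group, where 1.79% were called higher and 63.5% lower. In the top group it was 0.58, with 47.8% called higher and 5.97% lower, and the median of each group was above that of the group before it.

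**Figure D3:**
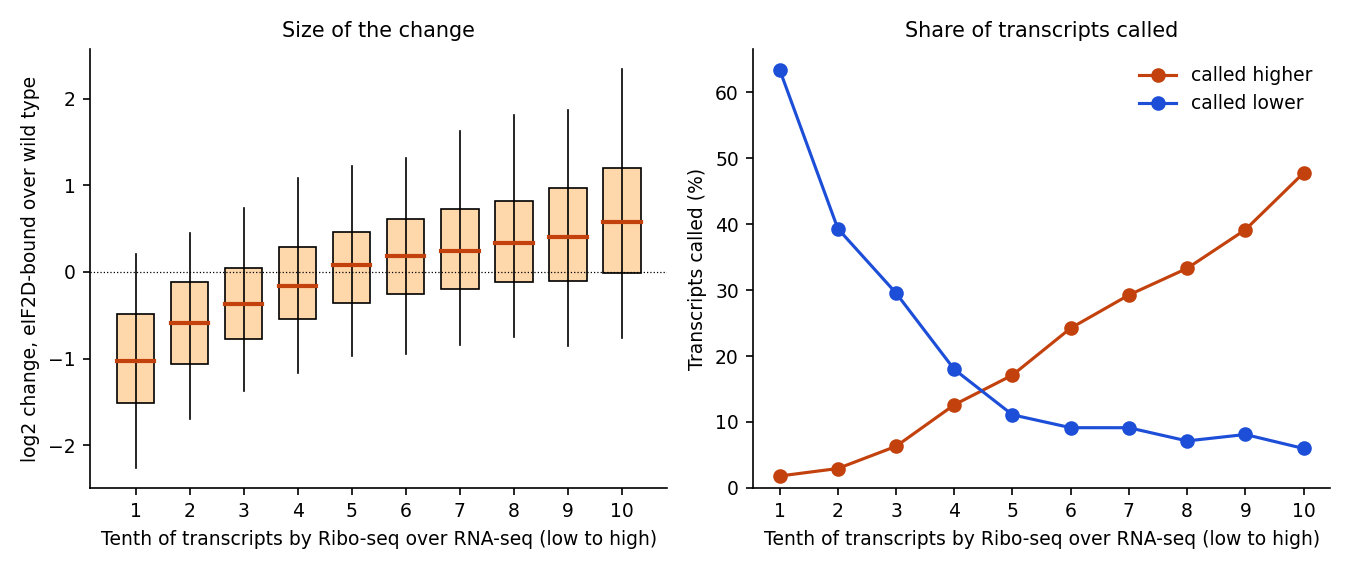
Left, log2 change (eIF2D-bound over wild type) in 10 equal groups of the 18414 transcripts ordered by Ribo-seq over RNA-seq, as median (orange line), lower to upper quartile (box) and the range from the 5th to the 95th percentile (whisker). Right, percent of each group called higher (orange) or lower (blue); the median runs over -1.03 to 0.58.

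Spearman's rho of the log2 change with ribosome load was 0.53 across these 18414 transcripts and 0.56 across the 9489 leading ones, given without a p because transcripts share reads and libraries. With load taken from control siRNA libraries it was 0.54. The highest minus the lowest quartile gave a median difference of 1.16 on the log2 scale, and 1.06 and 1.28 against wild type pairs 1 and 2 and 3 and 4. Among transcripts with a mean count of at least 100 the difference was smaller, 0.75. The values by load include transcripts with a mean count under 20 in 1 of the groups, which passed the filter through the other group. No value by load was obtained without them.

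mRNA abundance alone had a weaker relation to the change, with a rho of 0.16. Medians of the log2 change over quartiles of rising RNA-seq level were -0.22, -0.05, -0.00 and 0.16. Within each of these quartiles of level the change rose with load. In the lowest quartile of RNA-seq level it was -0.88 at the lowest load and 0.14 at the highest, and in the highest quartile of RNA-seq level it was -0.55 and 0.64.

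**Figure D4:**
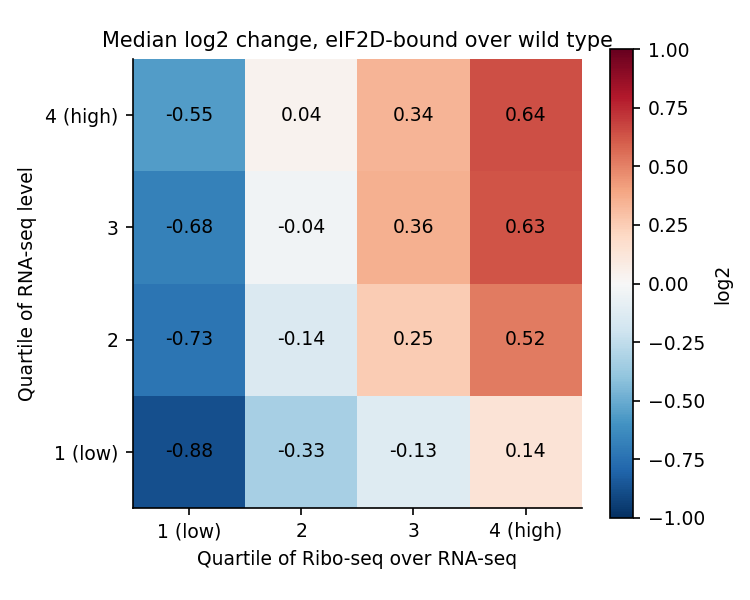
Median log2 change (eIF2D-bound over wild type) of transcripts divided by quartile of wild type RNA-seq level (vertical axis, low at the bottom) and of Ribo-seq over RNA-seq (horizontal axis, low at the left). Red cells are above 0 and blue cells below; every row runs upward with load, and the extremes are -0.88 and 0.64.

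The same pattern was seen library by library. Differences in level and rho were taken after each of the 6 was thinned to 777899 counts in the tested transcripts. Shares of counts were taken before thinning. The mean log2(CPM + 1) of the highest load quartile minus that of the lowest was 0.957 and 1.40 in the eIF2D-bound libraries, against 0.149, 0.154, -0.0979 and -0.0307 in the wild type libraries. Transcripts of the highest load quartile held 32.7% and 36.2% of the counts in the eIF2D-bound libraries, against 27.8%, 27.6%, 26.2% and 27.3% in wild type. Those of the lowest held 17.2% and 14.4%, against 20.4%, 19.7%, 21.6% and 20.3% in wild type. Both eIF2D-bound libraries lay outside the wild type range in all 3 measures, replicate 2 further than replicate 1. Spearman's rho across transcripts with wild type Ribo-seq was 0.615 and 0.749 in the eIF2D-bound libraries and 0.347 to 0.397 in wild type, and with wild type RNA-seq 0.485 and 0.554 against 0.442 to 0.473. Each of these 5 measures gave p = 0.0667 in the two-sided exact permutation test over the 15 ways to choose 2 of 6 libraries, the smallest this design allows (0.08 after Benjamini-Hochberg adjustment over 6 measures). The measures keep the transcripts that passed the filter through 1 of the groups compared, so these p-values are not free of the filter.

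**Figure D5:**
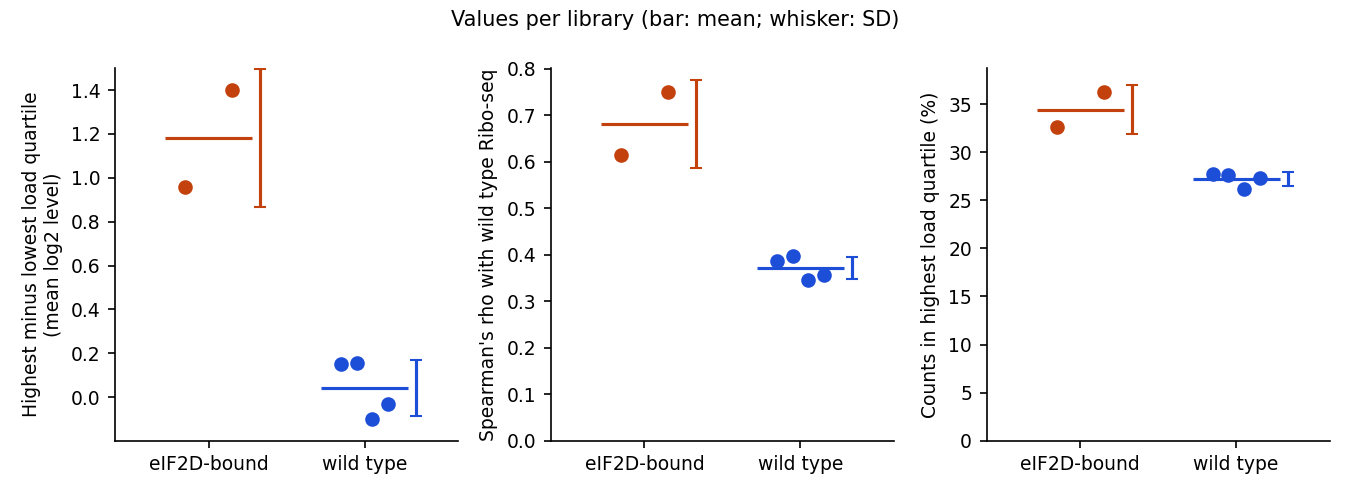
Values of each library, eIF2D-bound (orange, n = 2) left of wild type (blue, n = 4): difference in mean log2 level between the highest and lowest load quartiles, Spearman's rho with wild type Ribo-seq, and percent of counts in the highest load quartile. The level difference and rho were taken after thinning and the percent of counts before it. Bars are means and whiskers SD; in each panel both eIF2D-bound points lie above all wild type points.

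A gradient with ribosome load was also present for the other selected factors. In one fit over 10 libraries, the mean of MCTS1-bound and DENR-bound over wild type had medians of -0.74, -0.21, 0.13 and 0.33 over the same quartiles of load, where eIF2D-bound over wild type had -0.69, -0.09, 0.23 and 0.46. These comparisons share the wild type libraries, so their likeness is not evidence of its own. The direct difference between eIF2D-bound and the mean of MCTS1-bound and DENR-bound, which uses no wild type library as a reference, had medians of 0.06, 0.18, 0.16 and 0.17 over the quartiles, beside 0.11 over all transcripts. Share of counts in the highest load quartile was 32.7% and 36.2% in eIF2D-bound libraries, against 28.4% and 33.3% with MCTS1-V5 and 28.3% and 29.8% with DENR-V5 (p = 0.2, two-sided exact permutation test of 2 against 4 libraries). The ranges overlap. The share in the lowest load quartile was 17.2% and 14.4% in eIF2D-bound libraries, against 13.5% and 12.5% with MCTS1-V5 and 14.7% and 13.8% with DENR-V5 (p = 0.133, two-sided exact permutation test), also an overlap. Here too the eIF2D-bound share was the highest at each replicate number. The permutation tests do not use the replicate number, and the labels do not say whether it pairs libraries of different factors. The direct medians of the lowest and highest quartiles were 0.10 and 0.05 against MCTS1-V5 alone and -0.08 and 0.26 against DENR-V5 alone, so their order changed with the factor compared.

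Individual transcripts did differ between the selections. 2945 transcripts, 15.2%, were higher in eIF2D-bound than in the mean of MCTS1-bound and DENR-bound complexes, and 2009, 10.4%, were lower (edgeR, adjusted p under 0.05). The filter took in the eIF2D-bound and wild type libraries and not those of MCTS1-V5 and DENR-V5. A transcript could thus pass through its eIF2D-bound counts but not through its counts in the other selections. The MCTS1-V5 and DENR-V5 libraries were also shallower, at 356019 to 629784 counts in all. The split between rises and falls also depended on the scaling. Rises were 59.5% of the calls with TMM factors and 86.4% with library totals alone, which moved the median of all transcripts to 0.48, against 0.11. Without eIF2D-bound replicate 2 the numbers were 1273 and 612. Against MCTS1-V5 alone they were 1157 and 974.

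For this comparison the 2 largest rises and the 2 largest falls were named among leading transcripts with a mean count of at least 100. Each also had a called direct difference and no overlap between eIF2D-bound and the other selections. This rule left 162 candidates higher and 347 lower. Since it chose them for this difference, their values against the other selections are a description. ENST00000370355.3, at 161 CPM in RNA-seq and 100 CPM in Ribo-seq, had 420.8 and 523.1 CPM in the eIF2D-bound libraries. It had 61.79 and 38.58 CPM with MCTS1-V5 and 74.63 and 62.16 CPM with DENR-V5, and 179.4 to 287.3 CPM in wild type. The eIF2D-bound libraries were thus above every other library, by 2.81 ± 0.23 over the other selections and 1.09 ± 0.21 over wild type (log2, SE; edgeR adjusted p = 4.8e-09 and 0.00036). ENST00000479428.3 was the other named rise of this comparison, with 20.65 and 19.75 CPM in eIF2D-bound libraries, 0 and 1.61 CPM with MCTS1-V5, 7.94 and 0 CPM with DENR-V5, and 64.81 to 78.01 CPM in wild type. It was therefore higher than in the other selections (2.96 ± 0.58, SE, edgeR adjusted p = 0.00045), with a size that is loose because those selections lie near 0, and yet lower than in wild type (-1.77 ± 0.23, SE, edgeR adjusted p = 3.3e-06). The direct difference was 6.04 without DENR-V5 replicate 1 and 4.97 without MCTS1-V5 replicate 2. The transcript had 0 CPM in both RNA-seq and Ribo-seq of wild type cells.

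ENST00000365522.1 was the largest fall among the candidates of this rule. It had 58.01 and 24.78 CPM in eIF2D-bound libraries, against 516.8 and 237.9 CPM with MCTS1-V5, 431.9 and 389.5 CPM with DENR-V5, and 120.6 to 221.5 CPM in wild type. The other selections lay above wild type and eIF2D-bound below it, a direct difference of -3.55 ± 0.51 (log2, SE, edgeR adjusted p = 0.00056). ENST00000363804.1, named above as a fall, had 112.4 and 56.27 CPM with MCTS1-V5 and 109.6 and 95.31 CPM with DENR-V5, near the wild type level, and its direct difference was -3.52 ± 0.35 (SE, edgeR adjusted p = 1.7e-07). ENST00000363221.1 had 36.51 and 19.29 CPM with MCTS1-V5 and 31.76 and 16.58 CPM with DENR-V5, below wild type in all 3 selections. Its direct difference was -1.37 ± 0.44 (SE, edgeR adjusted p = 0.023), but the libraries overlap, with eIF2D-bound replicate 1, at 19.66 CPM, above replicate 2 of both other factors. Of the named rises over wild type, ENST00000645600.1 was also above the mean of the other selections (1.10 ± 0.27, SE, edgeR adjusted p = 0.0045). Its libraries overlap, with MCTS1-V5 replicate 2, at 147.9 CPM, above eIF2D-bound replicate 1, at 134.7 CPM. ENST00000584755.1 missed the threshold in the direct test, at a log2 difference of 0.66 (edgeR adjusted p = 0.13).

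Among transcripts under 1 CPM in both RNA-seq and Ribo-seq, falls in eIF2D-bound complexes outnumbered rises, unevenly over the 2 libraries. These 453 tested transcripts, in 330 groups that share reads, had a median log2 change of -0.88 in eIF2D-bound over wild type, with 62 called higher and 219 lower (48.3%, beside 20.7% of all). With MCTS1-V5 and DENR-V5 their median over wild type was 0.37. The direct difference of eIF2D from these selections had a median of -0.82, with 10 called higher and 176 lower (38.9%, beside 10.4% of all). The size rests on 1 library, since the median over wild type was -0.24 with eIF2D-bound replicate 1 alone and -1.21 with replicate 2 alone, and the direct median was -0.24 without replicate 2. Among the 119 with a mean count of at least 100 the median over wild type was -0.47. The 453 transcripts held 2.95% and 1.48% of the counts in the eIF2D-bound libraries, against 4.28% and 2.49% with MCTS1-V5, 4.20% and 3.40% with DENR-V5, and 2.48% to 3.28% in wild type. In every selection this share was lower in replicate 2 than in replicate 1. At each replicate number the eIF2D-bound share was below that of both other factors. The share in eIF2D-bound replicate 1 lies within the wild type range, and the exact permutation test gave p = 0.2 both against wild type and against the other selections. That test does not use the replicate number. The most abundant 10 transcripts held 17.8% of the class's counts.

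The 446 transcripts under 1 CPM in RNA-seq but not in Ribo-seq had a median log2 change over wild type of -0.11, with 135 called higher (30.3%, beside 21.5% of all) and 87 lower (19.5%, beside 20.7% of all). Against the other selections their median was -0.48, with 29 called higher (6.50%, beside 15.2% of all) and 147 lower (33.0%, beside 10.4% of all).

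The selection was then read beside loss of eIF2D. The TCP-seq of the eIF2D KO clones was compared with wild type libraries 1 and 2, and eIF2D-bound libraries with wild type libraries 3 and 4, so the comparisons share no library. Over all tested transcripts 1.55% were higher and 2.31% lower in the KO (300 and 447). Of the 3473 transcripts higher in eIF2D-bound complexes, 101 were higher in the KO (2.91%) and 49 lower (1.41%), with a median log2 change of 0.04. Of the 3282 lower in eIF2D-bound complexes, 16 were higher (0.488%) and 168 lower (5.12%), with a median of -0.09. In the single clones the median of those higher in eIF2D-bound complexes was 0.04 and 0.03, and of those lower -0.01 and -0.13. With the wild type pairs exchanged this pattern did not hold. Then 11.4% of all tested transcripts were higher and 11.2% lower in the KO. Of those higher in eIF2D-bound complexes 7.23% were higher and 9.68% lower in the KO, and of those lower in eIF2D-bound complexes 15.1% were higher and 15.0% lower. The medians were -0.07 and -0.05, so the difference between the classes, 0.13, turned to -0.01.

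The same classes were read after loss of MCTS1 or DENR, as the change in translational efficiency (the log2 change in Ribo-seq less that in RNA-seq), with no test. In the siDENR #1 cells its median was 0.025 for transcripts higher in eIF2D-bound complexes, 0.028 for those lower and 0.032 for all 18414. In siDENR #2 cells the medians were -0.023, 0.003 and -0.021. In MCTS1 KO clone #1 they were 0.008, 0.056 and 0.036, and in clone #2 0.045, 0.060 and 0.051.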

How the data were processed

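The authors deposited whole-number counts per transcript identifier, for 42 of the 52 samples in the labels; the other 10 are not analysed here. The submitters' processing notes name Subread, featureCounts, STAR and cutadapt, and the builds GRCh38.p13 and hg38. Their versions, and how strand, duplicates and reads over several transcripts were handled, are not given there. The members, classes and lists were chosen with earlier results of these data known.

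Counts were tested per transcript with edgeR 4.0.16 in R 4.3.3 (quasi-likelihood, robust fit, TMM, Benjamini-Hochberg adjusted p under 0.05), 1 group per coefficient. Standard errors (SE) were obtained by dividing the absolute log2 change by the root of the F statistic. CPM uses the total of all transcripts, and mean log2 levels add 1 CPM. The plan's gene lists and 1 transcript per gene needed gene names, so 1 transcript per distinct count profile (18168) or per group sharing reads was used instead. The named transcripts follow the rule on level and size given in the report, 2 in each direction. The main test, tried on simulated counts of 19313 transcripts, found 39% of true 2-fold changes and 97% of true 4-fold changes, with 12 false calls. The direct test on as many transcripts found 18% and 81%, with 8 false calls. In each simulation 100 transcripts were changed by each fold, and every transcript was drawn independently. The data hold many more calls, and transcripts there share reads, so these figures do not estimate the false calls among them.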

Additional observations from a re-analysis of the deposited data

Results flagged for a closer look

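ENST00000645600.1 had 27.04 CPM in wild type library 2, far from the 13.29, 15.49 and 15.26 CPM of the other wild type libraries and still below both eIF2D-bound libraries. About 1 group in 20 shows such a gap by chance.

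3 of the 4 transcripts named for their change over wild type also differed between eIF2D-bound and the mean of MCTS1-bound and DENR-bound complexes. The direct log2 difference was 1.10 for ENST00000645600.1, -3.52 for ENST00000363804.1 and -1.37 for ENST00000363221.1. The 4 named transcripts were chosen as extremes in the same eIF2D-bound libraries, so their direct differences are a description. Libraries of eIF2D-bound and the other selections overlap for ENST00000645600.1 and ENST00000363221.1. In all, 4954 transcripts were called in this direct test (edgeR, adjusted p under 0.05), 15.2% of those tested as higher and 10.4% as lower.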

How the results depend on the processing

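With only 2 eIF2D-bound libraries, numbers of calls followed replicate 2 and the filter. Leaving out 1 library in turn gave 2017 to 4340 transcripts higher and 1215 to 3704 lower than wild type, 3059 to 7581 called with 1 transcript per distinct count profile (7689 with all libraries), and 1172 to 2341 higher and 697 to 2070 lower among leading transcripts. With filterByExpr 7901 were higher and 7179 lower of 44062 tested, and with no filter 7493 and 7296 of 142005; 1503 leading transcripts were then higher. DESeq2 1.42.0 called 3279 and 2679, and library totals alone 4006 and 3802. The difference between load quartiles, 1.16, was 0.75 at a mean count of 100 or more, and it ranged over 0.88 to 1.33 without 1 library. The median of transcripts under 1 CPM in both assays was -0.47 at a mean count of 100 or more and ranged over -1.21 to -0.24 without 1 library, and its direct difference over -1.40 to -0.24. The KO difference, 0.13, was -0.013 with the wild type pairs exchanged; the cause was not tested.

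For eIF2D-bound over the other selections, library totals alone gave 5193 higher and 819 lower, filterByExpr 4442 higher, MCTS1-V5 alone 1157 and 974, and the 6 selected libraries without a block 1309 lower. Leaving out 1 library gave 1273 to 3059 higher and 612 to 2274 lower.

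The libraries were taken to share only a replicate number: the correlation of deviations of eIF2D-bound with wild type 1 and 2 was -0.057, and with MCTS1-V5 0.26 and DENR-V5 0.06. A fit with the replicate number as a block, on wild type 1 and 2, called 3629 higher and 2965 lower, against 3833 and 3218 without it; over the 6 selected libraries a block gave 3098 and 2358, against 2106 and 1309 without it. Every named transcript kept its direction under all alternatives run for the comparison it was named in. The direct differences of ENST00000645600.1, ENST00000584755.1 and ENST00000363221.1 were not run under these alternatives. Gene lists, 1 transcript per gene, cell line markers and protein windows were not run, since no table used here pairs transcripts with genes. Depth limits low transcripts most, and intervals from counts do not cover the spread between libraries.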
